A study of Mus musculus with 6 samples.

Results

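The 10 genes described here are transcription factors of the T and B lymphoid lineages: Bcl11a, Bcl11b, Gata3, Tcf7, Lef1, Tox, Ikzf1, Ikzf3, Pax5 and Ebf1. They were taken by symbol from a table of 55487 genes, and all 10 were found in it. The members were selected on their normalized counts in these same 6 libraries, so the levels are given as a description, with no test of the members themselves. RNA was sequenced from 6 bone marrow samples of mice carrying leukemia driven by MLL-AF9, a fusion oncogene of acute myeloid leukemia, 3 from recipients given PBS and 3 from recipients labelled pIpC. The study used these mice to ask what loss of BRD9, a bromodomain subunit of a SWI/SNF chromatin remodeling complex, does to leukemia that is already established.

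The donor cells of all 6 samples were CD45.2(+) Mx1-Cre Brd9fl/fl MA9, on the C57BL/6 background, and the recipients were CD45.1(+) CD45.2(-). Each recipient had been irradiated with 2 fractions of 450 cGy and had received 1000 cells. The injections of PBS, or of pIpC at 20 mg/kg, began the day after transplantation and were given 3 times on alternate days. GFP+ cells of the femora and tibiae were prepared 10 days after injection, per the labels, whereas the study's methods name c-Kit+ cells and call the irradiation sublethal. The labels give no age, and the study's methods describe the recipients as young mice. pIpC is a dsRNA mimic that induces interferon, interferon switches on Cre from the Mx1 promoter, and Cre removes the exons of Brd9 that encode the bromodomain. The groups therefore shared the donor genotype and the MLL-AF9 oncogene and differed in the injection, so loss of BRD9 and the interferon response to pIpC cannot be told apart here. Nothing in the labels says whether the 3 samples of a group came from separate mice, and the p-values below then measure only the spread between these samples.

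Transcription factors of this kind set lymphoid fate stepwise. BCL11B commits early thymocytes to the T lineage, after TCF-1 (the product of Tcf7) and GATA3 have started the T cell program, while EBF1 and PAX5 commit progenitors to the B lineage and PAX5 then holds them there. Ikaros (Ikzf1) acts in nearly all lymphoid cells, and its relative Aiolos (Ikzf3) in later B, T and plasma cells. BCL11A is needed for early lymphoid and B cell development and is also made in plasmacytoid dendritic cells and in other progenitors. Myeloid leukemia cells can carry some of these factors without a lymphoid identity.

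The label was checked first. Brd9 had normalized counts of 1927, 1946 and 1632 in the PBS libraries (here and below in the order of replicates 1, 2 and 3), against 2036, 2263 and 2011 in the libraries labelled pIpC. Its count was thus not lower in the latter (log2 difference 0.20 ± 0.13, standard error, limma adjusted p = 0.259). The label names the injection, and this count neither shows the deletion of Brd9 nor speaks against it. The count sums all exons of the gene, also those outside the deleted part, and the share of deleted alleles was not analysed here. All directions below are therefore between PBS and the libraries labelled pIpC. Depth was 19277439 to 22378154 reads on genes in the PBS libraries and 22348517 to 23586722 in the libraries labelled pIpC. PBS replicate 3 stood apart from its group: the chi-square statistic per gene was 216 against replicate 1 and 191 against replicate 2, compared with 6.83 between replicates 1 and 2. The groups as a whole differed widely, with 6808 of 15020 genes tested (45.3%) called at an adjusted p under 0.1. Hoxa9 and Meis1, the homeobox genes that MLL-AF9 activates, fell by 4.32 and 4.01 on the log2 scale (adjusted p = 1.27e-05 and 1.68e-05, limma), from means of 5130 and 3620 to 256 and 224. Hoxa10 of the leukemia cell list fell too, but the list did not share 1 direction, as given at the end. In bulk RNA fewer cells of a type and less RNA per cell cannot be told apart.

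Values are normalized counts, that is, reads divided by 1 size factor per library, and 1 read was worth between 0.865 and 1.13 normalized counts. All 10 factors had group ranges that did not overlap: the libraries labelled pIpC were higher for 8 and lower for 2. Over all genes with any read, 38.7% had ranges that did not overlap (21.8% higher, 16.9% lower), and over the genes tested 56.8%. Of the 10 members, 8 passed the filter of a mean of at least 10 and Gata3 and Tox did not. Of those 8, 3 met that mean in each group (Tcf7, Ikzf1 and Ikzf3) and 5 only through their higher group, so that their calls (6 higher, where 25.0% of all genes tested were called higher, and 2 lower, where 20.4% were) have no weight of their own. Since the rule used this contrast, nothing is read from these counts.

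**Figure D1:**
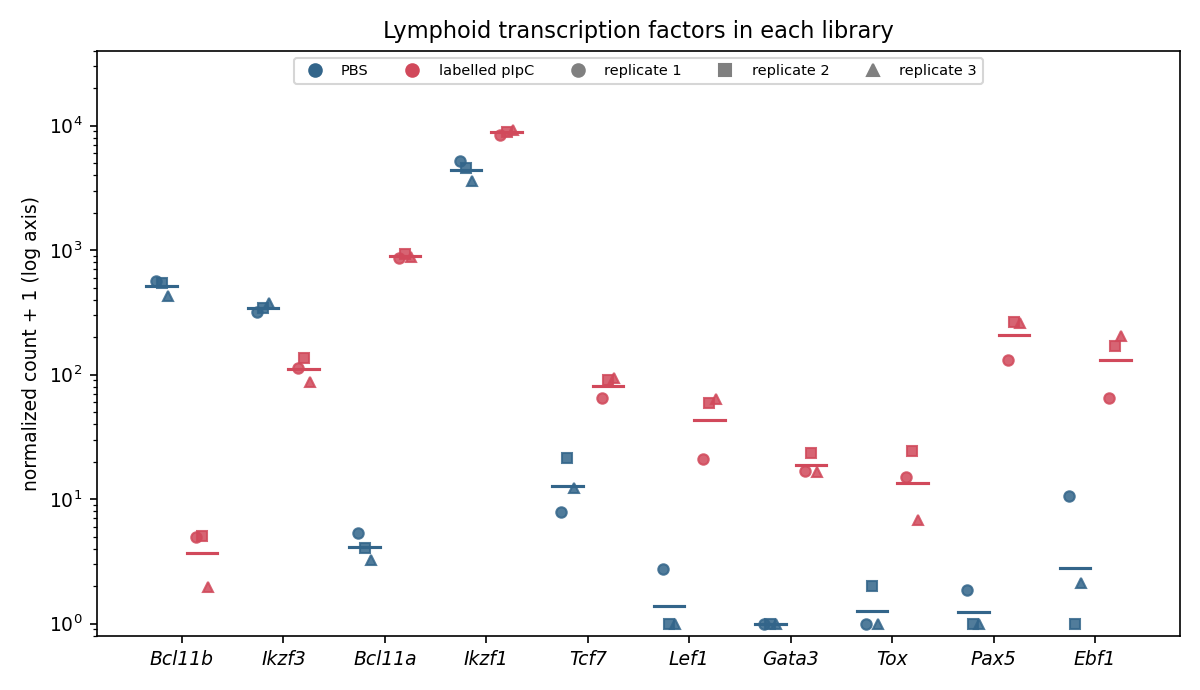
Normalized count plus 1 on a log axis for the 10 factors, with 1 point per library (circles, squares and triangles are replicates 1, 2 and 3) and a bar at the mean of the log values of each group. Bcl11b and Ikzf3 lie lower in the 3 libraries labelled pIpC than in the 3 PBS libraries and the other 8 factors lie higher; Bcl11b and Bcl11a change places.

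Bcl11b (ENSMUSG00000048251, GRCm38 chr12:107910403-108003602, minus strand) encodes a zinc finger factor. Its normalized counts were 566, 549 and 428 in PBS, against 3.99, 4.09 and 0.967 in the libraries labelled pIpC. The PBS libraries held 1574 reads of Bcl11b and the libraries labelled pIpC 9, so that the transcript was readily counted in 1 group and close to the limit of detection in the other. The pooled ratio of PBS to pIpC was 174 (exact 95% interval 91.5 to 382, which covers counting error only). On the scale of log2(normalized count + 1) the difference was -7.12 ± 0.42 (standard error), and only 27 of the 15020 genes tested had a lower one.

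Bcl11a (ENSMUSG00000000861, chr11:24078056-24174123, plus strand), the paralogue, ran the other way. It had normalized counts of 4.33, 3.04 and 2.26 in PBS and 868, 927 and 874 in the libraries labelled pIpC, a spread of 32.1 (SD, n = 3) about a mean of 890. These were 10 reads against 2681, with a pooled ratio of 269 (146 to 562) and a log2 difference of 7.75 ± 0.26, exceeded by 30 genes. An antisense gene, 4930538E20Rik, shares 316 exon bases with Bcl11a and was listed at 0 in PBS and at 5.99, 6.13 and 12.6 in the libraries labelled pIpC. The labels call the libraries unstranded and the study's methods call them stranded. If they were unstranded, reads in those shared bases cannot be assigned to either strand, but the antisense count was small beside that of Bcl11a.

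Per length of exon, each of these paralogues stood at nearly the level of the other in its own group. Bcl11b had 63.4 ± 9.28 normalized counts per kb in PBS and Bcl11a 67.5 ± 2.44 in the libraries labelled pIpC (SD, n = 3). The share of Bcl11b in the per-length sum of both genes was 99.5% to 99.7% in the PBS libraries and 0.179% to 0.741% in the libraries labelled pIpC. The sum itself was 70.1, 67.9 and 52.9 in PBS and 66.4, 70.8 and 66.5 in the libraries labelled pIpC. These sums overlapped between groups, so that the identity of the BCL11 gene differed while the total per length was not seen to. With 3 samples per group this does not show that the totals are equal.

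The start regions of the paralogues are shown here because the genes exchange places, beside those of Pax5 and Ebf1, the B lineage factors that were nearly absent from PBS. Each line gives the 300 bases from 250 before to 50 after a transcript start (RefSeq, GRCm38.p6), on the strand of the gene. Capitals mark matches to any of 6 short motifs searched on both strands. These were CAGCTG for E proteins, TGTGGT for RUNX factors and AGATAA for GATA factors. The others were CTTTGAT for TCF/LEF factors, TGGGAA for the Ikaros family and GAGGAAGT for PU.1, and no match overlapped another. The windows are chr12:108003365-108003664 (minus) for Bcl11b, chr11:24080445-24080744 (plus) for Bcl11a, chr4:44710645-44710944 (minus) for Pax5 and chr11:44617850-44618149 (plus) for the first of the Ebf1 windows.
Bcl11b: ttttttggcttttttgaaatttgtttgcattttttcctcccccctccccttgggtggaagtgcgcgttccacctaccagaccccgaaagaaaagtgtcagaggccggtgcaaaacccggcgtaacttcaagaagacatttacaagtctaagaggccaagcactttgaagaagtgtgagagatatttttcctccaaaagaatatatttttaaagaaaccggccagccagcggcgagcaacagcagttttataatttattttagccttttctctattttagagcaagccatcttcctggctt
Bcl11a: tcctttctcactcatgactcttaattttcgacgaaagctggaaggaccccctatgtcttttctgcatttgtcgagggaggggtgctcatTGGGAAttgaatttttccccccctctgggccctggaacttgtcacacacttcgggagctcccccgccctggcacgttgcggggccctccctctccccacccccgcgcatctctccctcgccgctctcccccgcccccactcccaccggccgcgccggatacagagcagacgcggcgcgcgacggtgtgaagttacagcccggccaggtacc
Pax5: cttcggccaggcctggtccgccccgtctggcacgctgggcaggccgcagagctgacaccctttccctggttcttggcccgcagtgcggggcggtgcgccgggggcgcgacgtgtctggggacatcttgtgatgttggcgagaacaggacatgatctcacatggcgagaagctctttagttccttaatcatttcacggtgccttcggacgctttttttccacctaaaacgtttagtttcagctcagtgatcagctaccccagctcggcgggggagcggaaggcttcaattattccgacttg
Ebf1: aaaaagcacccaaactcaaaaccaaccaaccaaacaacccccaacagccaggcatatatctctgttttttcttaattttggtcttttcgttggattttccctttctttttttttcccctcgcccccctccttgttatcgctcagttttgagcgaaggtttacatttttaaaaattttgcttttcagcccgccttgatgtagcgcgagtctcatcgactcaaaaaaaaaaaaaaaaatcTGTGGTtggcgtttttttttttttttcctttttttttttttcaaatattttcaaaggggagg

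The Bcl11b and Pax5 windows held none of the 6 motifs. Bcl11a held 1 Ikaros family match, whose first base lay 161 bases before the start, and Ebf1 held 1 RUNX match from 12 bases before the start. Those motifs occur in 25.6% and 16.8% of all 32851 windows. The Bcl11b window had 9 CpG dinucleotides and 43% G and C, near the median of 7 CpG over all windows. Bcl11a and Pax5 each had 23, more than 78.5% of windows had, with 63% and 59% G and C. Windows were found for 8 of the 10 members, 14 in all. Elsewhere among them, E protein matches lay in those of Gata3, Tcf7 and Lef1, Ikaros family matches in those of Lef1 and in the second Ebf1 window, and a GATA match in 1 of Lef1; the E protein and GATA motifs occur in 16.3% and 11.2% of all windows. No TCF/LEF or PU.1 motif was found in the 14, and these occur in 3.73% and 3.20% of all windows. A match describes letters only and is not a binding site.

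The genes around Bcl11b showed no common shift. Of the 3 nearest protein-coding genes on each side, 5 were tested and 1 was called, where 45.3% of all genes tested were. The called gene was Ccdc85c, which fell from a mean of 58.4 to one of 21.1 normalized counts (log2 difference -1.48 ± 0.32, adjusted p = 0.0122, limma). Setd3, whose start lies 176 kb away, had means of 1789 and 2058 (0.21 ± 0.12, adjusted p = 0.221), and Ccnk had means of 1074 and 1121. On the other side, Vrk1 (-0.20 ± 0.13) and Papola (0.52 ± 0.22) did not pass the test either, and 3110018I06Rik was listed at 0 in every library. Without PBS replicate 3, Setd3 (0.29, adjusted p = 0.00413, limma) and Papola (0.27, adjusted p = 0.0108) passed the test too, both higher in the libraries labelled pIpC. Within 2000 kb of the start of Bcl11b, 14 other genes were tested. Of these, 3 rose and 2 fell, where 25.0% and 20.4% of all genes tested did. The 14 log2 differences ran from -1.52 to 1.16. Bcl11b at -7.12 lay far outside that range.

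**Figure D2:**
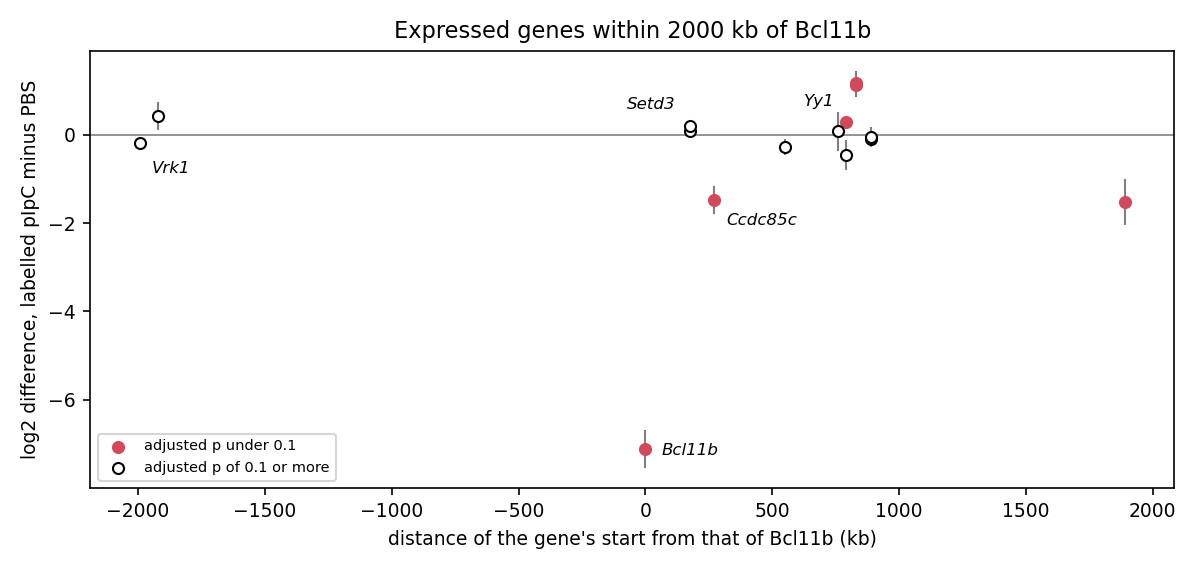
Log2 difference (libraries labelled pIpC minus PBS, ± standard error) of each tested gene against the distance of its start from that of Bcl11b in kb. The 14 other genes lie between -1.52 and 1.16, and filled points passed the test; Bcl11b lies at -7.12.

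For the 9 other factors the nearest protein-coding gene on each side was read in the same way. They had 18 such neighbours, of which 11 were tested and 5 called, where 45.3% of all genes tested were. Of these 5, 3 went in the direction of the member, and nothing is read from these counts. Nsmaf, beside Tox, rose from a mean of 41.7 to 1135 (log2 difference 4.75, adjusted p = 1.77e-05, limma). Rnf145 and Clint1, on either side of Ebf1, rose by 1.74 and 0.78 (adjusted p = 0.000578 and 0.00372). Against the direction of their members, Zcchc7 beside Pax5 fell by 0.49 (adjusted p = 0.0232) and Rpl34 beside Lef1 fell by 1.04 (adjusted p = 0.0913). The Rpl34 value rested largely on PBS replicate 3, with 20431 normalized counts where the other PBS libraries had 6856 and 7424: without it the log2 difference was -0.53 with an adjusted p of 0.00069 (limma). Without any 1 of the libraries labelled pIpC the adjusted p was 0.176 to 0.227.

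Ikzf1 (ENSMUSG00000018654, chr11:11685003-11772926, plus strand) was the most abundant of the 10 per length in each group. Its normalized counts were 5169, 4547 and 3622 in PBS and 8438, 8923 and 9222 in the libraries labelled pIpC. Ranges did not overlap, and the log2 difference of 1.01 ± 0.16 was the smallest in size among the members. Without PBS replicate 3, which had the lowest count, it was 0.87.

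Ikzf3 (ENSMUSG00000018168, chr11:98464902-98546031, minus strand), which encodes Aiolos, was the only member besides Bcl11b with lower counts in the libraries labelled pIpC. Its normalized counts were 319, 345 and 372 in PBS and 112, 134 and 87.0 in the libraries labelled pIpC, a log2 difference of -1.65 ± 0.21. Unlike Bcl11b, it remained well above the limit of detection, with 333 reads over the 3 libraries. The direction also set it apart from Pax5 and Ebf1, although Aiolos is best known from B cells.

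A relative that is no member moved further. Ikzf2, which encodes Helios, fell from 3353, 3156 and 1356 to 226, 312 and 220 normalized counts (log2 difference -3.28 ± 0.36, adjusted p = 0.000606, limma). Ikzf1 therefore made up 70.7% to 77.1% of the per-length sum of the 5 Ikaros family genes in PBS and 96.4% to 97.4% in the libraries labelled pIpC. Ikzf2 held 20.7% ± 5.54 and 1.37% ± 0.27, and Ikzf3 held 3.91% ± 1.18 and 0.80% ± 0.18 (SD, n = 3). The family sum was 1053 ± 217 and 1584 ± 67.4 normalized counts per kb. In percentage points, Helios thus lost more of the family share than Aiolos.

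**Figure D3:**
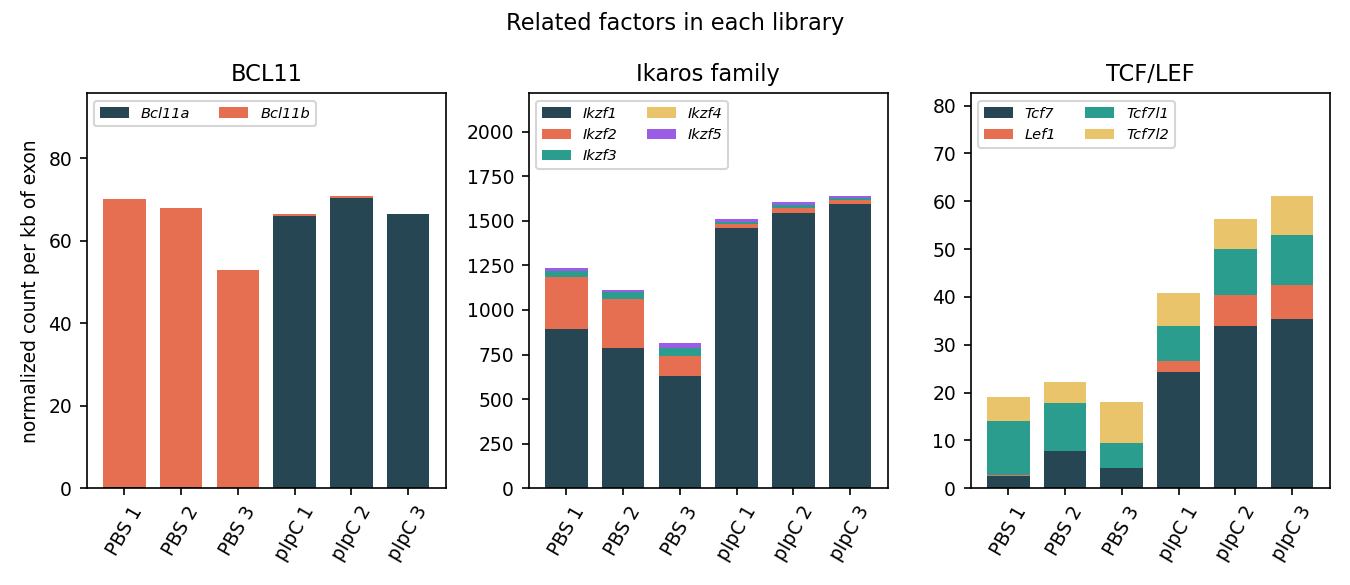
Stacked bars of the normalized count per kb of exon for the members and relatives of 3 families in each of the 6 libraries. Bcl11b fills the BCL11 bars of PBS and Bcl11a those of the libraries labelled pIpC at a like height, Ikzf2 shrinks from 20.7% to 1.37% of the Ikaros family, and Tcf7 and Lef1 enlarge the TCF/LEF bars.

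Tcf7 (ENSMUSG00000000782, chr11:52252371-52283014, minus strand) encodes TCF-1, a DNA-bound partner of beta-catenin. Its normalized counts were 6.92, 20.2 and 11.3 in PBS and 63.9, 88.9 and 92.8 in the libraries labelled pIpC. It was thus present at a low level in every library, with 38 and 247 reads, a pooled ratio of 6.53 (4.62 to 9.44) and a log2 difference of 2.68 ± 0.42.

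Lef1 (ENSMUSG00000027985, chr3:131110471-131224356, plus strand) encodes a relative of TCF-1 that acts in early T and B cells. It had 1.73, 0 and 0 normalized counts in PBS and 20.0, 58.2 and 62.9 in the libraries labelled pIpC. With 2 reads against 142, the pooled ratio was 71.3, with an interval as wide as 19.4 to 594. Of the other TCF/LEF genes, Tcf7l1 (mean 34.7 in PBS and 35.8 in the libraries labelled pIpC, adjusted p = 0.845, limma) and Tcf7l2 (53.1 and 62.2, adjusted p = 0.529) did not pass the test. Tcf7 took 24.1% ± 10.4 of the family sum in PBS and 59.2% ± 1.21 in the libraries labelled pIpC.

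Gata3 (ENSMUSG00000015619, chr2:9857078-9890034, minus strand) had no read in any PBS library and 16.0, 22.5 and 15.5 normalized counts in the libraries labelled pIpC. These 54 reads put it at least 18.1-fold higher there, taking 3 reads over the PBS group as the limit that a count of 0 allows. GATA3 shares its motif with GATA1 of erythroid and mast cells and GATA2 of stem cells and mast cells. Gata1 rose from a mean of 14.0 to 281, 206 and 291 (adjusted p = 5.27e-05, limma) and Gata2 fell from 1284, 1320 and 1618 to 627, 595 and 632 (adjusted p = 0.000717). Gata3 remained a minor part of the 3 genes, with 2.05% ± 0.67 of their per-length sum in the libraries labelled pIpC.

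Tox (ENSMUSG00000041272, chr4:6686353-6991557, minus strand), an HMG-box factor of CD4 T cell and innate lymphoid development, was the scarcest of the members that were higher in the libraries labelled pIpC. Its normalized counts were 0, 1.01 and 0 in PBS and 14.0, 23.5 and 5.80 in the libraries labelled pIpC. That is 1 read against 43, with a pooled ratio of 43.2 (7.35 to 1745). Its relative Tox4, which is broadly expressed, had 1429 to 1712 normalized counts in PBS and 1610 to 1717 in the other group and made up over 98.6% of the TOX family per length in every library.

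Pax5 (ENSMUSG00000014030, chr4:44524757-44710487, minus strand) had normalized counts of 0.865, 0 and 0 in PBS and 131, 266 and 258 in the libraries labelled pIpC. The single PBS read against 658 gave a pooled ratio of 661 (118 to 26137), and the log2 difference of 7.41 ± 0.45 was exceeded by 45 genes. An opposite-strand gene of no defined type, 5730488B01Rik, shares 636 exon bases with Pax5 and had 0.998, 8.17 and 6.77 normalized counts in the libraries labelled pIpC.

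Ebf1 (ENSMUSG00000057098, chr11:44617317-45008091, plus strand) had normalized counts of 9.52, 0 and 1.13 in PBS and 63.9, 169 and 203 in the libraries labelled pIpC. Of its 12 PBS reads, 11 lay in PBS replicate 1. The pooled ratio was 36.7 (20.8 to 71.6) and the log2 difference 5.54 ± 0.91. EBF1 is also made by stromal and adipocyte precursors in marrow, so its transcript is less specific to B cells than that of Pax5.

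Within the libraries labelled pIpC, replicate 1 was the lowest of the group for 6 of the 10 members, where 37.6% of all genes tested were so, a pattern chosen after its values were seen. Relative to the mean of replicates 2 and 3, it stood at 0.330 for Lef1, 0.344 for Ebf1, 0.499 for Pax5 and 0.703 for Tcf7, but at 0.964 for Bcl11a and 0.930 for Ikzf1. A gap of over 1.5-fold was found for 3 of these 6, Lef1, Ebf1 and Pax5, and for 7.40% of all genes tested. The B lineage list had 8 of 24 tested genes so, and the T lineage list 2 of 12. Without replicate 1, the log2 differences were 5.46 for Lef1, 6.04 for Ebf1 and 7.74 for Pax5. Ighm, the heavy chain of IgM, went against this order, with 39147, 8397 and 17362 normalized counts in replicates 1, 2 and 3.

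Per length, the order of the 10 factors in PBS was Ikzf1 (770 normalized counts per kb), Bcl11b (63.4), Ikzf3 (39.5) and Tcf7 (4.89), each separated from the next with no overlap between libraries. Below these came Ebf1, Bcl11a, Lef1, Tox, Pax5 and Gata3, at means of 0.364 or less, whose neighbours in the order overlapped. In the libraries labelled pIpC, Ikzf1 (1534) and Bcl11a (67.5) led without overlap. Tcf7 (31.2), Pax5 (24.6), Ebf1 (14.9) and Ikzf3 (12.7) followed, each overlapping with the next, then Lef1 (5.35) and Gata3 (4.52), which overlapped, then Tox (1.90). Bcl11b (0.372) came last. Set against all genes detected in a group, Bcl11b per kb lay above 62.5% of them in PBS and above 9.42% in the libraries labelled pIpC, and Bcl11a above 7.12% and 65.1%. Ikzf1 lay above 94.2% and 97.5%.

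The members share features of their genes that played no part in their choice. Of the 10, 5 lie on chromosome 11 (Bcl11a, Tcf7, Ikzf1, Ikzf3 and Ebf1), where 8.43% of the protein-coding genes tested lie. They are long, with a median span of 94.6 kb against 23.5 kb over the protein-coding genes tested, and a median exon length of 8.43 kb against 4.45 kb. No test was made of these counts.

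Genes whose pattern over the 6 libraries was most like that of a member were found by the root mean square difference of centred log2 values. For Bcl11b these were Slc2a13, 8030453O22Rik, Slc13a3, Pik3c2g and Adgrb1, at 0.40 to 0.46 log2 units. None is a gene of the T lineage list, but this was fixed in advance. Only genes tested were searched, and every tested gene of that list was higher in the libraries labelled pIpC. Slc13a3, for example, had 411, 305 and 358 normalized counts in PBS and 3.99, 3.07 and 1.93 in the libraries labelled pIpC. For Pax5 the nearest was Rag1, the recombinase that opens antigen receptor loci (0.15), and for Gata3 it was Klrd1, an NK cell receptor (0.13). Bcl11a was nearest to Fcer1a, the IgE receptor chain of mast cells and basophils (0.23), and Lef1 to Mcoln2 (0.27). The others were Prnp for Tcf7 (0.14), Fam135a for Tox (0.37), Ptpn9 for Ikzf1 (0.029), Rhoj for Ikzf3 (0.085) and Epb41l4b for Ebf1 (0.50). With 6 libraries in 2 groups, likeness of this kind mostly reflects a like difference between the groups.

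The lists that follow were written from general knowledge of lineage and function, and are described by their counts beside the background of 45.3% called, with a median log2 difference of 0.01 over all genes tested. T lineage genes were scarce in every library. Of 25 listed, 12 were tested and all 12 rose in the libraries labelled pIpC (median 3.10), but only 2 had a mean of at least 10 in PBS and 5 were at 0 in all PBS libraries, among them Trac, the constant chain of the alpha-beta T cell receptor. Most of the 12, Thy1 and Cd6 among them, were thus tested only through the libraries labelled pIpC, so their rises have less weight. Thy1 rose from 2.60, 4.05 and 0 to 62.9, 79.7 and 56.1 (adjusted p = 0.00152, limma), and Cd6 rose from a mean of 0.577 to 30.8 (adjusted p = 0.00138). Cd3e, which every T cell needs for receptor signaling, had means of 0.963 and 7.95 and was not tested. The summed level of the 25 genes was 93.4 to 138 normalized counts per PBS library and 696 to 759 per library labelled pIpC. The high Bcl11b of PBS libraries thus stood beside T lineage markers at or near 0, and the lowest Bcl11b beside somewhat higher ones.

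B lineage genes were higher with Pax5 and Ebf1. Of 24 tested, 23 rose and 1 fell (median 5.32), and the summed level of the 25 listed was 8071 to 12359 in PBS and 17171 to 46835 in the libraries labelled pIpC, most of it Ighm and Cd37. Dntt, the polymerase that adds bases at antigen receptor joints, rose from 0, 0 and 5.66 to 211, 449 and 418 (log2 difference 7.50, adjusted p = 0.000492, limma). Rag1 rose from 0.865, 0 and 0 to 105, 275 and 295 (adjusted p = 9.71e-05). Cd37, a tetraspanin that is not confined to B cells, was the exception and fell from a mean of 7240 to 4866 (adjusted p = 0.0562). In PBS, 5 of the 25 had a mean of at least 10, and Ms4a1, the gene of CD20, was at 0. Most of the 24, Dntt and Rag1 among them, were thus tested only through the libraries labelled pIpC, so their rises have less weight. The part of admixed B cells in the levels of Pax5 and Ebf1 was not tested.

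Markers of other cells moved as well. Of the NK and innate lymphoid genes, 10 of 11 tested rose (median 3.76), but 4 of the 15 listed had a mean of at least 10 in PBS, so most of them were tested only through the libraries labelled pIpC. Tbx21, the factor T-bet of NK and Th1 cells, was the one that did not pass, with a mean of 16.1 in PBS and of 8.65 in the libraries labelled pIpC and no overlap between them (adjusted p = 0.104, limma). The rises were led by Il1rl1, the IL-33 receptor of type 2 innate lymphoid cells and mast cells, from a mean of 1.00 to 223 (adjusted p = 2.30e-05, limma). Ncr1, the NKp46 receptor, rose from 0.914 to 47.8 (adjusted p = 0.000341). The summed level of these 15 genes was 392 to 545 in PBS and 6460 to 7018 in the libraries labelled pIpC. Of 9 plasmacytoid dendritic cell genes tested, 6 rose (median 0.83), and 6 of the 11 listed had a mean of at least 10 in PBS. Siglech, from a mean of 1.43 to 68.3, and Cox6a2, from 0.577 to 31.2, led the rises (adjusted p = 0.000895 and 0.000698, limma). Like Ccr9, they were tested only through the libraries labelled pIpC. Irf7, Bst2 and Cd300c did not pass, and the means of Bst2 (909 and 575) and Cd300c (32.7 and 24.5) were lower there. The summed level of the 11 genes was 23401 to 28544 in PBS and 31912 to 35994 in the libraries labelled pIpC, carried by Ly6c2. Of 10 marrow stromal genes tested, 6 rose and 2 fell (median 3.48), and 7 of the 13 listed had a mean of at least 10 in PBS. Adipoq, Kitl, Lepr and Ebf3, all among the rises, were tested only through the libraries labelled pIpC. The remaining rises met that mean in each group. They were Cxcl12, from a mean of 61.1 to 633, and Igfbp5, from 17.0 to 187 (adjusted p = 0.000233 and 0.00222, limma). The 2 genes that fell, Pdgfrb and Col1a2, met it in each group too. Adipoq, from 0 in every PBS library to a mean of 34.4, and Kitl, from 2.54 to 43.6, led the rises, and Pdgfrb fell from 549 to 173 (adjusted p = 0.000199, 0.000842 and 0.00216). The summed level of the 13 stromal genes ranged from 764 to 1106 and from 1094 to 1646. The labels call the cells GFP+ and the study's methods name c-Kit+ cells, and the purity of the sorted cells was not analysed here. What part admixed cells of these other types had in the levels of Gata3, Tox, Bcl11a or Ebf1 was not tested.

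**Figure D4:**
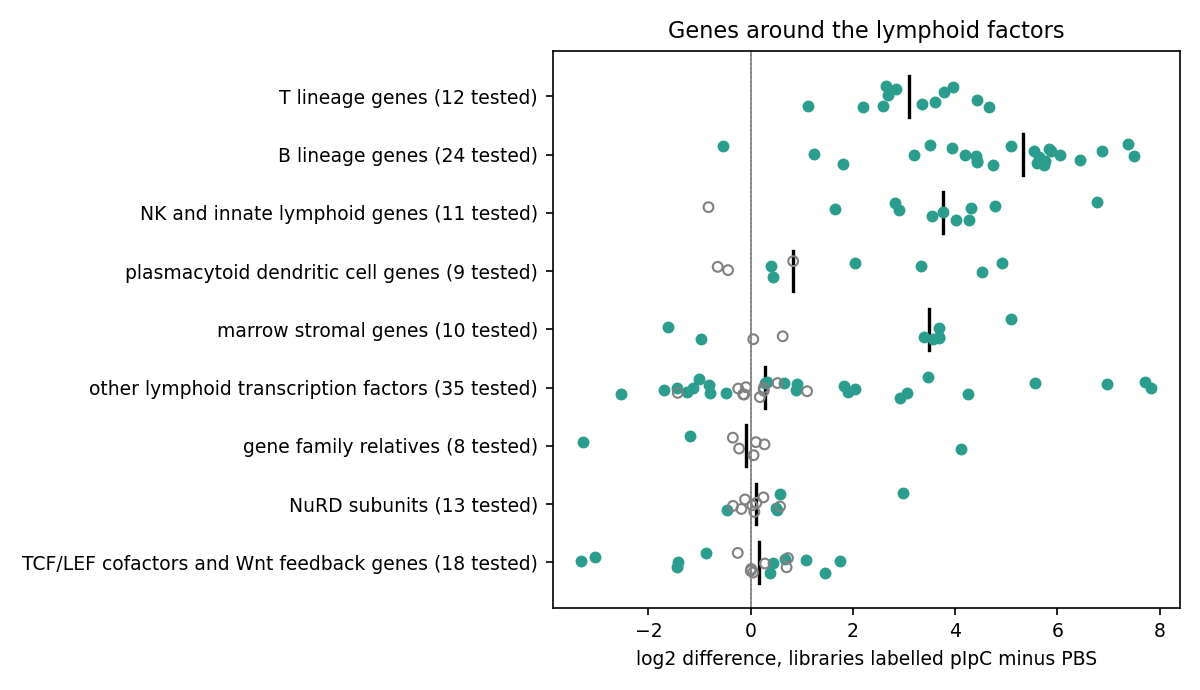
Log2 difference (libraries labelled pIpC minus PBS) of each tested gene of 9 lists, with 1 point per gene, filled where the gene passed the test, and a vertical stroke at the median of the list. The medians lie at 3.10 for T lineage, 5.32 for B lineage and 3.76 for NK and innate lymphoid genes, and at 0.28 for other lymphoid transcription factors; the dotted line is the median of all genes tested, 0.01. Most tested genes of the T lineage, B lineage and NK lists passed the filter only through the libraries labelled pIpC, which favors high medians.

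Other transcription factors of lymphoid development did not share 1 direction. Of 35 tested, 16 rose, 9 fell and 10 did not pass the test (median 0.28). Only 27 of the 35 had a mean of at least 10 in PBS. The rest, among them Satb1 and Mef2c, were tested only through the libraries labelled pIpC, so their rises have less weight. Satb1, a chromatin organizer of lymphoid progenitors and thymocytes, rose from 10.4, 8.10 and 2.26 to 1396, 1695 and 1699 normalized counts (log2 difference 7.84, adjusted p = 5.27e-05, limma), a difference of the size seen for Bcl11a. Mef2c, which favors lymphoid over myeloid output of progenitors, rose from a mean of 5.53 to 1086 (7.72, adjusted p = 0.00013). Klf2, a quiescence factor of T cells that is also made in myeloid cells, fell from 3974 to 686 (adjusted p = 3.52e-05). Among genes named after their values were seen, Myb fell from 20941 to 8824 and Ets1 rose from 1338 to 5393 (adjusted p = 0.000705 and 0.000267), while Runx1 (2344 and 1972, adjusted p = 0.179) and Spi1, the gene of PU.1 (7463 and 6762, adjusted p = 0.776), did not pass. Of the 16 relatives of the members, 8 were tested, of which Gata1 rose, Ikzf2 and Gata2 fell and 5 did not pass, 37.5% called.

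BCL11A, BCL11B and the Ikaros factors recruit the NuRD complex, which combines a remodeling ATPase with histone deacetylases. Of its 13 subunit genes, 4 rose, 1 fell and 8 did not pass the test, 38.5% called beside the background of 45.3%. Chd3, an ATPase subunit, rose from 166, 142 and 89.4 to 825, 1217 and 1048 (log2 difference 2.98, adjusted p = 0.00026, limma). Mta1 rose by 0.58 (adjusted p = 0.0159) and Hdac2 fell by 0.47 (adjusted p = 0.0623). Chd4, the more abundant ATPase, had means of 7541 and 10420 (adjusted p = 0.0867). The count depended on PBS replicate 3: without it 10 subunits were called, where 9783 of all 15020 genes were, and without any 1 other library between 2 and 5.

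TCF-1 and LEF1 act with beta-catenin or with Groucho (TLE) corepressors, and their targets include feedback inhibitors of Wnt signaling. Of 18 such genes tested, 6 rose, 5 fell and 7 did not pass the test (median 0.16). All 18 had a mean of at least 10 in PBS and 16 had one in the libraries labelled pIpC. Nkd1 and Axin2 were thus tested only through PBS. Bcl9l, a coactivator that binds beta-catenin, rose from a mean of 91.7 to 297 and Znrf3, a ligase that removes Wnt receptors, by 1.45 on the log2 scale (adjusted p = 0.00438 and 0.0097, limma). The 5 that fell were Nkd1, Rnf43, Axin2, Jup and Tle1. Nkd1, a feedback inhibitor, fell from 18.2, 18.2 and 31.7 to 2.99, 2.04 and 0 (log2 difference -3.32, adjusted p = 0.00601). Rnf43, a ligase related to Znrf3, fell from 700, 727 and 535 to 80.8, 63.3 and 90.9 (-3.05, adjusted p = 9.36e-05), and Axin2 from a mean of 16.8 to 6.36 (adjusted p = 0.0928). Beside the higher Tcf7 and Lef1, the feedback gene Znrf3 thus rose while Nkd1, Rnf43 and Axin2 fell. None of the 110 called genes of the lists turned direction with quantile normalization or in edgeR or DESeq2.

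Markers of the labelled leukemia cells did not share 1 direction. Of 8 genes, 3 rose, 3 fell and 2 did not pass the test. Hoxa10 fell from a mean of 1537 to 17.8, like Hoxa9 and Meis1 (log2 difference -6.38, adjusted p = 1.76e-05, limma). Mpo, the myeloperoxidase of granulocyte precursors, rose from 5112 to 136726 (adjusted p = 1.37e-05) and Itgam, the gene of CD11b, from 2902 to 7798 (adjusted p = 0.00103). Ptprc, the gene of CD45, rose from 6337 to 12579 (adjusted p = 0.0103), and Kit (6265 and 4362, adjusted p = 0.213) and Csf1r (1619 and 1714, adjusted p = 0.639) did not pass. Bcl11b thus differed in the direction of Hoxa9, Hoxa10 and Meis1, and Bcl11a in that of Mpo and Itgam.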

How the data were processed

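Poly(A)-selected RNA of 6 bone marrow samples was sequenced in libraries that are unstranded per the labels and stranded per the study's methods. The authors deposited 1 table of normalized counts, here treated as a signal: reads of each gene divided by 1 size factor per library. Dividing each column by its smallest step gave whole reads for 100% of values above 0 (tolerance 0.01 of a read). The submitters' processing notes name HISAT2 (version 2.2.1), SAMtools, featureCounts (Subread), edgeR and GRCm38, whereas the study's methods name a STAR and RSEM pipeline with mm10 and DESeq2, and which of these made the table is not stated. Normalization to a common size makes levels relative, and multi-mapped or strand-ambiguous reads could be lost or shared between genes. Groups and replicate numbers came from the sample titles.

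The 15020 genes whose normalized count averaged at least 10 were compared with limma (version 3.58.1, R 4.3.3, intensity trend) on log2(normalized count + 1), which understates differences of low genes, two-sided, at a Benjamini-Hochberg adjusted p under 0.1. Members got no p. Their low counts are compared as pooled reads, with exact 95% intervals or, at 0 reads, a limit of 3 reads per group. Positions and exon lengths came from GENCODE M21 on GRCm38, and start regions from RefSeq. The members, the 10 lists (181 genes) and the tests were chosen with earlier results of these data known. Named genes are the members, Brd9, Hoxa9, Meis1, the 2 highest and 1 lowest called genes of each list, the 3 nearest protein-coding genes on each side of Bcl11b (1 for other members) and the 5 most similar patterns to Bcl11b (1 for others); genes named beyond this rule are known by their values. Other settings tried were pseudocounts of 0.1 and 10, filters at a mean of 50 and at none, quantile normalization, each library left out, a replicate block, edgeR (version 4.0.16) and DESeq2 (version 1.42.0) on recovered reads, and an adjusted p under 0.05. Scripts were tested on simulated data. Exon-level values and the study's other experiments were not analysed here.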

Additional observations from a re-analysis of the deposited data

How the results depend on the processing

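Each of the 10 members kept its direction under every alternative that gave it a value, over 112 values. This was largely fixed in advance and lends the directions no weight. The group ranges of all 10 did not overlap, so neither another pseudocount nor a library left out could reverse a direction. A change of filter leaves the difference of a gene as it was. The ranges below describe size only. The log2 difference ranged from -8.00 to -5.33 for Bcl11b, from 6.09 to 8.12 for Bcl11a, from 0.87 to 1.13 for Ikzf1, from -1.80 to -1.49 for Ikzf3, from 2.04 to 3.05 for Tcf7, from 2.33 to 7.31 for Lef1, from 4.41 to 9.93 for Pax5 and from 3.45 to 6.94 for Ebf1. The widest ranges come from the pseudocount, since the lower group of these genes holds few reads. Gata3 and Tox had values only without the filter, and Tcf7 and Lef1 none at a mean of at least 50. Of all genes tested, 6808 were called, and 4650 to 9783 with 1 library left out (9783 without PBS replicate 3, 4650 without pIpC replicate 2); quantile normalization called 7322, of which 44.3% were higher against 55.1% in the main test, and moved the median of all genes to -0.12. Same-numbered libraries were no more alike in their deviations (correlations of -0.117, 0.143 and 0.041) than differently numbered ones (-0.176 to 0.154). With 3 libraries per group these values cannot settle whether the replicate numbers pair libraries. With a replicate block 6095 genes were called, and the NuRD count became 3. That count was 5 in the main test, 3 at an adjusted p under 0.05 and 2 to 10 with 1 library left out. A mean of at least 50 left 2 called T lineage, 15 B lineage, 5 NK and innate lymphoid, 3 plasmacytoid dendritic cell and 4 stromal genes, because fewer genes were tested; without a filter 21 T lineage genes were called. The other named genes gave 636 values, of which 608 kept direction and side of the threshold and 7 reversed, all of genes that did not pass the test: under quantile normalization Ccnk (-0.022), Fignl1 (-0.050), Melk (-0.0099) and Vdac1 (-0.049), and with 1 library left out Vdac1 (-0.0086 to 0.20), Ccnk (-0.060 to 0.17) and Taf3 (-0.033 to 0.27). Calls of Cd37, Hdac2 and Rpl34 were lost in 12 of these values, and calls of Hadh, Papola, Setd3, Vdac1 and Vrk1 were gained in 9, of which 4 came without PBS replicate 3 (Hadh, Papola, Setd3 and Vdac1). The cause of these changes was not tested. Depth limits Gata3, Tox and Lef1 most, with 142 reads or fewer in their higher group.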
